A study of Mus musculus with 6 samples.

Results

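Closing 1 naris of a young mouse keeps odor-laden air from the olfactory mucosa of that side, and the open naris of the same animal serves as its comparison. In this study 7 genes, Akr1b3, Necab3, Dcdc2a, Entpd2, Rims3, Itpka and Slc23a3, stood higher in all 3 closed libraries than in all 3 open libraries. They were picked for that pattern, from 24315 rows in the table of all genes, so the difference between the sides is given here as a description without a test. All 7 are among the 14788 rows whose mean reached 1 FPKM, a unit that divides sequenced fragments by transcript length and by library depth. Of those rows 190 (1.28%) had the same order of libraries, so the pattern is not particular to the 7. Each library came from the whole olfactory mucosa of a wild type C57BL/6 mouse at postnatal day 11. The 3 mice each gave a library from the closed nostril and a library from the open nostril. How and when the naris was closed is not stated in the labels, and there were no unoperated mice, so a higher closed value cannot be told apart from a lower open value.

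The mucosa holds mature and immature olfactory sensory neurons, sustentacular (supporting) cells, basal stem cells, glands, glia and blood cells. Loss of odor input is known to change the transcripts of olfactory neurons without stopping their turnover. The 7 genes belong to no common pathway. Akr1b3 and Entpd2 encode enzymes of sugar alcohol and extracellular nucleotide metabolism, and Itpka a kinase of the second messenger inositol trisphosphate. Necab3 and Rims3 encode a calcium-binding and a presynaptic protein, Dcdc2a a microtubule-binding protein of cilia, and Slc23a3 a membrane protein of the family of vitamin C and nucleobase transporters.

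Promoter sequences were found in RefSeq (GRCm38.p6) for 6 of the 7 genes, Necab3, Dcdc2a, Entpd2, Rims3, Itpka and Slc23a3. The 250 bases before the annotated start are printed for Rims3, which had the largest difference between the sides, for Itpka, which has the highest GC content of the 6, and for Dcdc2a, which holds none of the GC boxes marked in those. Capitals mark the GC box GGGCGG, read on either strand. A match is a description of the letters and not a binding site.
Rims3 (chr4:120854549-120854798, plus strand): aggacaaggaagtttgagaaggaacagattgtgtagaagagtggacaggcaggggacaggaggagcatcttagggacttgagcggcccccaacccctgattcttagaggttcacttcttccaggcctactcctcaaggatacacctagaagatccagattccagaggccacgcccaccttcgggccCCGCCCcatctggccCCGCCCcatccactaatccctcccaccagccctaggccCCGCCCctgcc
Itpka (chr2:119742087-119742336, plus strand): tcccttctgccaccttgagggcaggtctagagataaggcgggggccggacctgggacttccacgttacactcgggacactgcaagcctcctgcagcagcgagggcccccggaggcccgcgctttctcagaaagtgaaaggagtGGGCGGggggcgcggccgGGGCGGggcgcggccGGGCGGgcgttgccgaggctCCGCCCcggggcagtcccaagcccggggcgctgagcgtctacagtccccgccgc
Dcdc2a (chr13:25055754-25056003, plus strand): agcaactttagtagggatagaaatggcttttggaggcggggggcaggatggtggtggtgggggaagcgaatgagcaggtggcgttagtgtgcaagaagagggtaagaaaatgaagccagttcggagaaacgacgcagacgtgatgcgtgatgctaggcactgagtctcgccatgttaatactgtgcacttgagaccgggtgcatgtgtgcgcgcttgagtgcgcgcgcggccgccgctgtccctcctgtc

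The GC box stood in the promoters of 4 of the 6 genes (Necab3, Entpd2, Rims3 and Itpka) and in 32.7% of the 32851 promoters of the same length in the table. Rims3 held 3 copies and Itpka 4. The GC content was 59.6% for Rims3, 72.8% for Itpka and 57.2% for Dcdc2a, against a median of 52.4% over all promoters. Sequence motifs linked to neuronal activity or to the olfactory lineage were searched on both strands as well. The cAMP response element TGACGTCA, its short form TGACG stood in none of the 6 windows, where 1.55% and 17.8% of all promoters hold them. CCCNNGGG, the core of the motif of the olfactory factor Ebf, was in that of Itpka and in 11.8% of all promoters. The Egr motif GCGNGGGCG (4.7% of all promoters) and the TATA motif TATAAA (12.4%) were not in these windows either. The AP-1 motif TGANTCA, found in 6.75% of all promoters, was in that of Entpd2, as was TGGAAA, the core of the tonicity element (18.6%). CCAAT, found in 33.8%, was in that of Necab3.

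The libraries were of similar quality. They held 24958172 to 43584803 reads, of which 93.28% to 96.99% were aligned, and the RNA integrity number was 10 throughout. Closed replicate 1 was the shallowest and drew 11.3% of its summed FPKM from small RNA rows such as microRNAs, where the remaining 5 libraries drew 3.47% to 5.27%. Omp, the marker of mature olfactory neurons, stood at 1414 to 2212 FPKM and Cyp2g1, a cytochrome of sustentacular cells, at 1129 to 1626 FPKM. S100a5, a calcium-binding protein of olfactory neurons that depends on odor input, stood at 208.0 to 300.5 FPKM in the closed libraries, and at 1951 to 2102 FPKM in the open ones (log2 difference -3.03, limma SE 0.19, adjusted p = 0.000888). With the mouse as a block the limma adjusted p of S100a5 was 0.0132.

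Among the 14788 rows, 190 (1.28%) had all 3 closed libraries above all 3 open ones, and 309 (2.09%) had the opposite order. Within mice, 7.41% of rows were higher on the closed side in all 3. All of the 7 genes are among the 190 by choice. Of the 190 rows 2 are small RNA rows. Leaving out those 2, the median closed minus open difference of the other 188 was 0.23 on log2(FPKM + 1), and the 7 genes ranged from 0.60 to 1.12. In order of the mean difference among the 188, Rims3 was 1, Akr1b3 3, Dcdc2a 4, Entpd2 5, Necab3 7, Itpka 13 and Slc23a3 14. In order of the gap between the lowest closed and the highest open library, Akr1b3 was 1 (0.59), Dcdc2a 2 (0.51) and Slc23a3 4 (0.43), while Entpd2 was 31 (0.15), the smallest gap of the 7. At the edge of the pattern, Rabl3 lay just inside, with a lowest closed value of 6.531 and a highest open value of 6.530 FPKM, and Jam3 just outside, with a gap of -0.003 FPKM at a level of 20.14. Hspbap1 was the next row outside, with closed values from 2.941 and open values up to 2.942 FPKM.

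**Figure D1:**
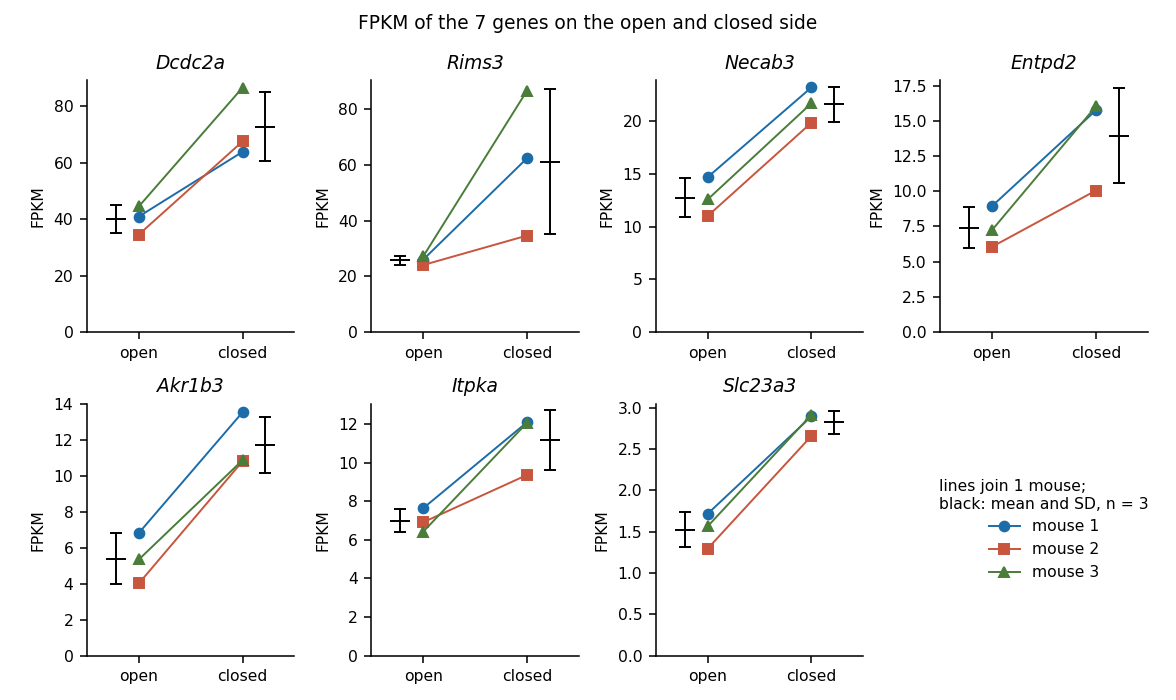
FPKM of the 7 genes (vertical axes, linear from 0) on the open and closed side, with a line for each mouse and the mean and SD (n = 3) in black beside each side. Every line goes up from open to closed, and the closed values of Rims3 spread from 34.7 to 86.7 FPKM whereas its open values lie between 24.1 and 27.2.

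Akr1b3 encodes aldose reductase, which turns glucose into sorbitol in the polyol pathway and also reduces reactive aldehydes. Closed replicates 1, 2 and 3 measured 13.6, 10.8 and 10.9 FPKM, and open replicates 1, 2 and 3 measured 6.83, 4.02 and 5.36 FPKM. The lowest closed library was thus 3.998 FPKM above the highest open one, and mouse 1 was the highest on both sides. The means were 11.8 ± 1.56 and 5.40 ± 1.41 FPKM (SD, n = 3 each), a ratio of 2.18. Within mice 1, 2 and 3 the closed side was 1.99, 2.69 and 2.03 times the open side. The log2 difference was 1.01 ± 0.19 (SD over 3 mice).

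Entpd2 encodes an ectonucleotidase that removes phosphate from extracellular ATP, a signal between cells of sensory epithelia, and in taste buds it marks glia-like cells. It measured 15.7, 10.05 and 16.02 FPKM in closed replicates 1 to 3 and 8.95, 6.06 and 7.25 FPKM in open replicates 1 to 3. Mouse 2 was the lowest on both sides, and its closed value lay only 1.10 FPKM above the open value of mouse 1. The means were 13.9 ± 3.37 and 7.42 ± 1.45 FPKM, and the closed side was 1.76, 1.66 and 2.21 times the open side in mice 1, 2 and 3. The log2 difference was 0.81 ± 0.21.

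Itpka encodes inositol-trisphosphate 3-kinase A, which adds a phosphate to the messenger that opens calcium stores and binds actin filaments in dendritic spines. The closed libraries measured 12.1, 9.36 and 12.1 FPKM and the open ones 7.64, 6.91 and 6.42 FPKM. The sides did not overlap, with mouse 2 lowest on the closed side and mouse 3 lowest on the open side. The closed side was 1.58, 1.35 and 1.88 times the open side in mice 1, 2 and 3, and the log2 difference was 0.60 ± 0.21. The value of 1.35 in mouse 2 was the smallest within-mouse ratio of all 7 genes.

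Necab3 encodes a protein with an EF-hand, the fold that binds calcium, and is known to bind the Mint adaptor proteins of the amyloid precursor protein. It measured 23.2, 19.85 and 21.7 FPKM in the closed and 14.7, 11.01 and 12.6 FPKM in the open libraries. The mice kept the same order on both sides, mouse 1 highest and mouse 2 lowest. The within-mouse ratios, 1.58, 1.80 and 1.73, were close to each other, and the log2 difference was 0.72 ± 0.09.

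Rims3 encodes a short member of the family of Rab3-interacting molecules, which organise the release site for synaptic vesicles. It had both the largest difference and the largest spread of the 7 genes. The closed libraries measured 62.4, 34.7 and 86.7 FPKM, the open ones 26.1, 24.1 and 27.2 FPKM. The open libraries lay close together (25.8 ± 1.58 FPKM), while the closed SD was 26.0 FPKM around a mean of 61.2. The closed side was 2.39, 1.44 and 3.18 times the open side in mice 1, 2 and 3, with log2 differences of 1.23, 0.51 and 1.63.

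Dcdc2a encodes a doublecortin-domain protein that binds microtubules and lies in primary cilia, and whose human counterpart is linked to dyslexia and to inherited deafness. It was the most abundant of the 7 on either side, with 63.9, 67.6 and 86.7 FPKM in the closed and 41.0, 34.6 and 44.6 FPKM in the open libraries. The sides were separated by 19.3 FPKM. The within-mouse ratios were 1.56, 1.95 and 1.94, and the log2 difference was 0.84 ± 0.18.

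Slc23a3 encodes an orphan member of a family whose better-known members Slc23a1 and Slc23a2 carry vitamin C into cells together with sodium. It was the least abundant, with 2.90, 2.66 and 2.92 FPKM in the closed and 1.72, 1.30 and 1.57 FPKM in the open libraries. Its closed libraries agreed closely (2.83 ± 0.143 FPKM against 1.53 ± 0.214 FPKM in the open ones). The within-mouse ratios were 1.69, 2.05 and 1.86. The log2 difference of 0.60 ± 0.08 understates the change of so low a gene, and with a pseudocount of 0.1 in place of 1 it was 0.85.

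By level per transcript length, the open side ran from Dcdc2a (40.1 FPKM) through Rims3 (25.8), Necab3 (12.8), Entpd2 (7.42), Itpka (6.99) and Akr1b3 (5.40) to Slc23a3 (1.53). Entpd2 and Itpka overlapped in their ranges there, as did Itpka and Akr1b3, and the other neighbours in the order did not. On the closed side Akr1b3 (11.8) came before Itpka (11.2), and the ranges of Entpd2, Akr1b3 and Itpka again overlapped from neighbour to neighbour. The closed ranges of Dcdc2a (63.9 to 86.7 FPKM) and Rims3 (34.7 to 86.7 FPKM) overlapped as well, although Dcdc2a was the higher in all 3 closed libraries. In mean FPKM the 7 genes stood between percentile 11.6 (Slc23a3) and percentile 88.4 (Dcdc2a) of the rows tested.

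The values within each side are described without a test, since the choice of the genes used all 6 libraries. Mouse 2 was the lowest of its side in 6 of the 7 genes on the closed side and in 6 of the 7 on the open side, as it was in 42% and 26.4% of all 14788 rows. The exceptions were Dcdc2a, lowest in closed replicate 1, and Itpka, lowest in open replicate 3. Rims3 spread the most, from -0.71 in closed replicate 2 to 0.59 in closed replicate 3 around its side mean on log2(FPKM + 1). The summed FPKM of 13 mature neuron markers (Omp, Gng13 and Stoml3 the most abundant) was also lowest in mouse 2 on each side, at -0.11 from the closed mean and -0.24 from the open mean in log2. In tissue libraries such as these, more cells of a type and more RNA per cell cannot be told apart.

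**Figure D2:**
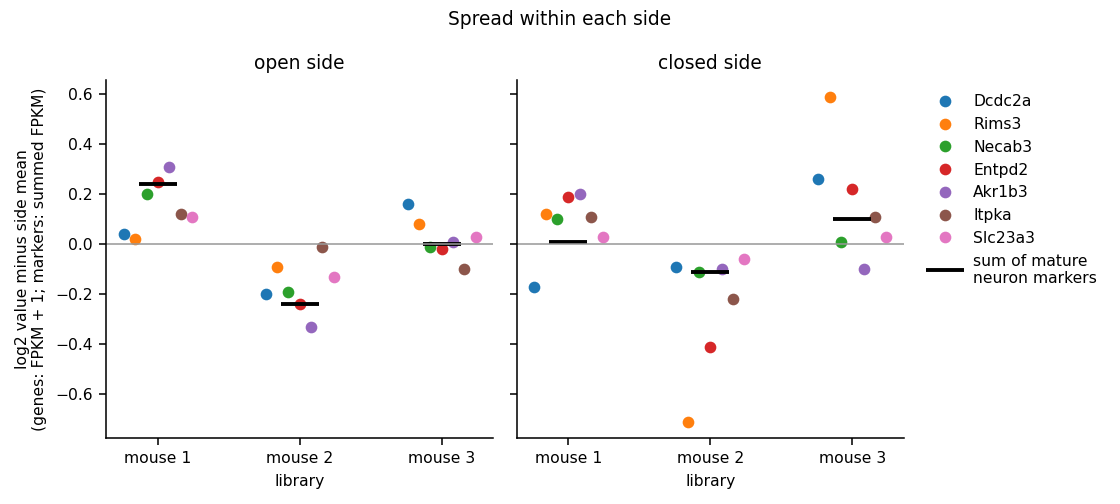
Deviation of each library from the mean of its side (vertical axis, log2), for the 7 genes (points, FPKM + 1) and the summed mature neuron markers (bars), with the 3 mice along the horizontal axis. All 7 genes and the marker sum lie below 0 in mouse 2 on both sides, from -0.01 for Itpka on the open side to -0.71 for Rims3 on the closed side.

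Mature neuron markers leaned the same way as the 7 genes between the sides. Of the 13 markers 12 lay higher on the closed side, with a median log2 difference of 0.26. Of all 14788 rows 6804 lay higher on the closed side. None of the 13 markers was past limma's test at an adjusted p under 0.05, against 0.0473% of all rows. At an unadjusted p under 0.05 there were 2 of these markers, against 1.45% of all rows. Their sum was 5572 to 6476 FPKM on the closed and 4288 to 5979 FPKM on the open side, ranges that overlapped, and none of the markers was at 0. The log2 ratio of the sums, closed over open, was 0.03 in mouse 1, 0.38 in mouse 2 and 0.35 in mouse 3. The 7 genes differed by 0.52 (Slc23a3) to 1.23 (Rims3) in mouse 1, by 0.39 (Itpka) to 1.24 (Akr1b3) in mouse 2 and by 0.61 (Slc23a3) to 1.63 (Rims3) in mouse 3. Each library was also divided by its marker sum, an alternative chosen after the data were seen. The log2 differences were then 0.79 for Akr1b3, 0.59 for Dcdc2a and Entpd2, 0.48 for Necab3, 0.43 for Slc23a3, 0.37 for Itpka and 0.88 for Rims3. The median of all rows moved from -0.01 to -0.23. The 7 genes did not overlap between the sides here, an order for which they were chosen, so this is a description and not a test.

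Markers of other cell types lay in overlapping or lower ranges on the closed side. Summed sustentacular markers (11 genes) were 5703 to 6114 FPKM on the closed and 6238 to 8317 FPKM on the open side, and 9 of the 11 lay lower. Horizontal basal cell markers lay lower in 7 of 7 (sums 74.9 to 113.8 against 99.04 to 126.0 FPKM), macrophage markers in 7 of 7 (78.9 to 99.2 against 92.3 to 113.8 FPKM) and endothelial markers in 6 of 6 (14.3 to 30.95 against 22.3 to 31.5 FPKM). Gland markers lay lower in 6 of 7 (3069 to 5921 against 4927 to 8545 FPKM) and glia markers in 6 of 7 (298.3 to 382.7 against 328.2 to 652.8 FPKM). Neutrophil markers lay higher in 7 of 8 (511.0 to 1129 against 569.5 to 873.3 FPKM), progenitor markers in 7 of 7 (112.3 to 146.7 against 105.2 to 130.3 FPKM) and immature neuron markers in 6 of 10 (1541 to 1625 against 1293 to 1888 FPKM). By mouse, the log2 ratio of the summed endothelial markers, closed over open, was -0.84, 0.21 and -0.02 in mice 1, 2 and 3. It was 0.22, -0.47 and -1.07 for glia, 0.96, 0.10 and -0.16 for neutrophil, and -0.25, 0.25 and 0.11 for immature neuron markers. The sign differed between mice in these lists and was the same in all 3 mice in the others of this paragraph. No marker of any list here was past limma's test, against 0.0473% of all rows, and none was at 0. Unadjusted, 1 of 7 horizontal basal, 2 of 7 gland and 1 of 8 neutrophil markers were under 0.05, against 1.45% of all rows. The part of cell composition in the side difference of the 7 genes was not tested.

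The relatives of the 7 genes, which the choice did not use, were compared in the fit over all rows. The 7 themselves were left out of the relatives and of every family or pathway list, so medians and ranges do not include them. Of 20 close relatives 16 reached a mean of 1 FPKM. None was called by limma at an adjusted p under 0.05 (smallest adjusted p = 1), and none with the mouse as a block. Of all rows limma called 0.0473% (0.00676% higher and 0.0406% lower on the closed side), and 0.0338% with the block. With shares so low, a count of 0 in lists as short as these, here and below, says little about their members. At an unadjusted p under 0.05 there were 0 of 16 without the block and 1 of 16 with it (Itpkb), against 1.45% and 2.37% of all rows. Their median log2 difference was -0.09, with 3 above and 13 below 0, against a median of -0.01 over all rows. Without closed replicate 2 there were 7 above and 9 below 0 with a median of -0.03, and with any other library left out 2 to 5 above 0 with medians from -0.15 to -0.06.

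**Figure D3:**
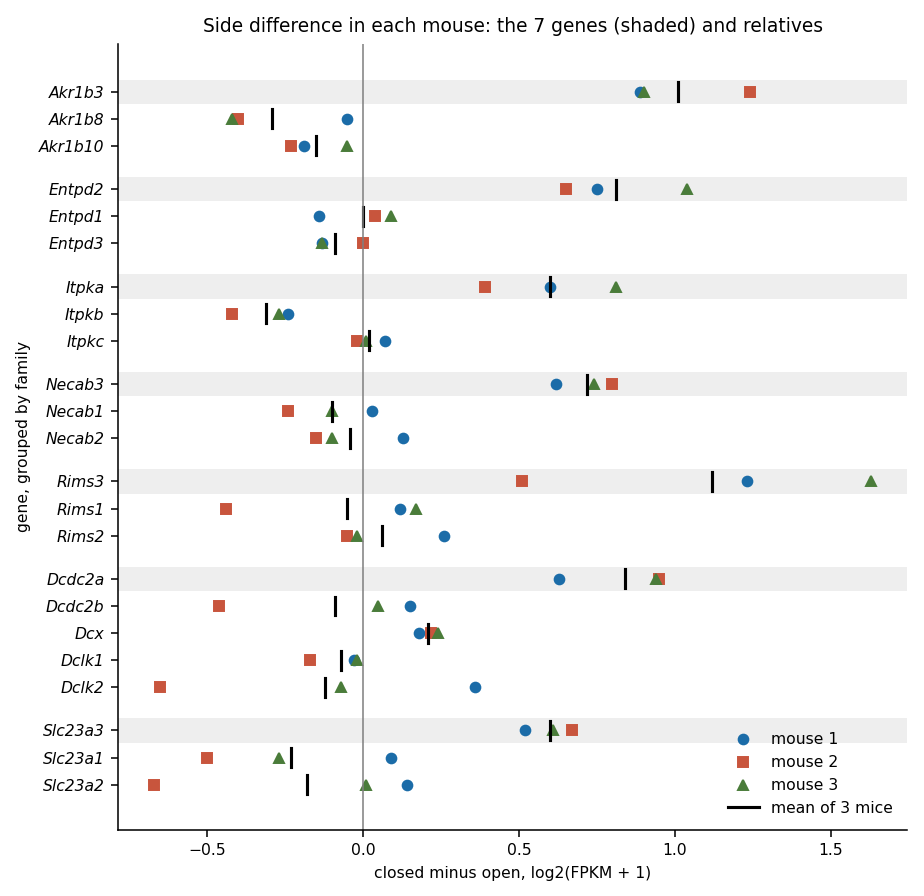
Closed minus open difference of log2(FPKM + 1) in each mouse (points) and its mean (black bar) for the 7 genes (shaded rows) and their 16 measured relatives, grouped by family. The 7 genes have means from 0.60 to 1.12, and the relatives from -0.31 (Itpkb) to 0.21 (Dcx).

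Among the aldo-keto reductases beside Akr1b3, Akr1b8 measured 2.53 ± 0.321 FPKM on the closed and 3.32 ± 0.506 FPKM on the open side (log2 difference -0.29, limma adjusted p = 1), with no overlap in the opposite direction to Akr1b3. Akr1b10 measured 5.73 ± 0.594 and 6.51 ± 1.029 FPKM (-0.15), and Akr1b7 stayed under 0.06 FPKM. Akr1b3 lay above Akr1b10 in all 3 closed libraries, and on the open side only in mouse 1 (6.83 against 6.17 FPKM). Of the wider list of aldo-keto reductases and polyol enzymes, with Akr1b3 left out, 10 of 13 were measured. None was called, against 0.0473% of all rows (lowest Akr1b8, highest Akr7a5 at 0.13, with Akr1e1 at 0.11 and Akr1c14 at -0.11). Of 8 measured genes of osmolyte transport and osmotic response, a program to which aldose reductase belongs in kidney, none was called. Their median was -0.09. It was -0.19 without closed replicate 3 and -0.21 without open replicate 1, and from -0.08 to -0.05 with any other library left out. The kinase Sgk1 stood at -0.36 and the amino acid transporters Slc38a2 and Slc6a9 at -0.26 and -0.12.

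Among ectonucleotidases of the family of Entpd2, Entpd1 measured 6.79 ± 1.80 and 6.73 ± 1.20 FPKM in closed and open libraries and Entpd3 5.22 ± 0.667 and 5.62 ± 0.933 FPKM (log2 difference -0.09). Entpd8 was listed at 0 in all 6 libraries. The list of extracellular purine genes, with ATP and adenosine receptors and nucleotide-splitting enzymes, had 25 of 33 members measured. None was called, against 0.0473% of all rows, and their median was -0.10 with 3 above and 22 below 0. Without closed replicate 1 there were 9 above and 16 below 0, and 7 above 0 without open replicate 1 or open replicate 2. The ATP-gated channel P2rx4 measured 39.3 ± 4.09 FPKM on the closed and 33.2 ± 3.16 FPKM on the open side (log2 difference 0.23), the adenosine receptor Adora1 stood at -0.19 and Enpp2, which makes lysophosphatidic acid, at -0.25. Itpkb, the sister kinase of Itpka, measured 9.30 ± 1.15 FPKM on the closed and 11.8 ± 1.63 FPKM on the open side (log2 difference -0.31) and its closed value was the lower in all 3 mice, while Itpkc stood at 0.02. Of 19 measured inositol phosphate genes none was called, against the same 0.0473% of all rows. The phospholipase Plcb3 stood at 0.14, the hexakisphosphate kinase Ip6k2 at 0.19 and the phosphatase Inpp1 at -0.15.

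Necab1 and Necab2 measured 4.26 ± 1.07 and 7.52 ± 2.20 FPKM on the closed side, and 4.63 ± 0.990 and 7.66 ± 1.30 FPKM on the open side, both below Necab3 in every library. Of the 7 genes of the Necab and Mint list none was called, against 0.0473% of all rows. Apba1, which encodes Mint1, had the smallest unadjusted p of the lists (0.0232, limma adjusted p = 1). It measured 12.9, 12.98 and 16.01 FPKM on the closed and 18.4, 16.5 and 18.5 FPKM on the open side (log2 difference -0.33), the open side being higher in all 3 mice with no overlap. Apba2, which encodes the Mint2 protein, stood at 0.08 and Hif1an at 0.02.

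In the family of Rims3, the long form Rims2 measured 7.09 ± 1.29 FPKM on the closed and 6.70 ± 0.752 FPKM on the open side and Rims1 1.42 ± 0.544 and 1.47 ± 0.172 FPKM. Rims4, the other short form, stayed under 0.7 FPKM. Rims3 was therefore the most abundant member per transcript length in all 6 libraries. Of 17 measured active zone genes, with Rims3 left out, none was called, against 0.0473% of all rows. Their median was -0.02, and they ranged from -0.09 (Ppfia2) to 0.18 (Unc13c), with the scaffold Pclo at 0.16. The list's lean depended on single libraries: 8 of 17 lay above 0 with all of them, 15 of 17 (median 0.13) without closed replicate 2, and 4 of 17 (median -0.06) without closed replicate 3 or open replicate 1. Among doublecortin genes, Dcx, a marker of immature neurons, measured 38.5 ± 7.95 FPKM on the closed and 33.0 ± 6.41 FPKM on the open side and was higher in 3 of 3 mice (log2 differences from 0.18 to 0.24, limma adjusted p = 1). Dclk1, Dclk2 and Dcdc2b stood at -0.07, -0.12 and -0.09, and Dcdc2c was below 1 FPKM in every library. Of the 7 measured genes of the doublecortin list none was called, against the same 0.0473% of all rows, with D130043K22Rik at 0.23, Dyx1c1 at 0.07 and Dclk3 at -0.05. The vitamin C transporters Slc23a1 and Slc23a2 measured 2.21 ± 0.202 and 19.6 ± 3.43 FPKM on the closed side, and 2.83 ± 0.876 and 22.6 ± 5.91 FPKM on the open side (log2 differences -0.23 and -0.18). None of the 9 measured genes of vitamin C and nucleobase transport was called, against that same share of all rows, among them Slc2a1 (-0.12), Slc29a1 (-0.10) and Slc29a2 (-0.09).

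Genes beside the 7 in the genome were compared to see whether the difference extended along the chromosome. They were taken by position from the GENCODE M21 annotation (GRCm38), whereas the deposited values rest on mm9. Of the 14 nearest protein-coding genes on either flank 13 reached 1 FPKM, as did Npdc1, which overlaps Entpd2 on the same strand. None of these 14 genes was called by limma, and none was under 0.05 unadjusted, against 0.0473% and 1.45% of all rows. With shares so low, a count of 0 among 14 genes does not decide whether the difference extended. Their log2 differences ran from -0.68 (Nrsn1, beside Dcdc2a) to 0.30 (Nhej1, beside Slc23a3). Above 0 were 11 of the 14, against 6804 of all 14788 rows. Nrsn1 is a low row, with 2.07, 1.15 and 0.81 FPKM in the closed libraries. Its open libraries measured 1.62, 1.88 and 5.48 FPKM, so the extreme leans on open replicate 3. Cnppd1, on the other flank of Slc23a3, stood at 0.26 and Ltk, beside Itpka, at 0.25.

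**Figure D4:**
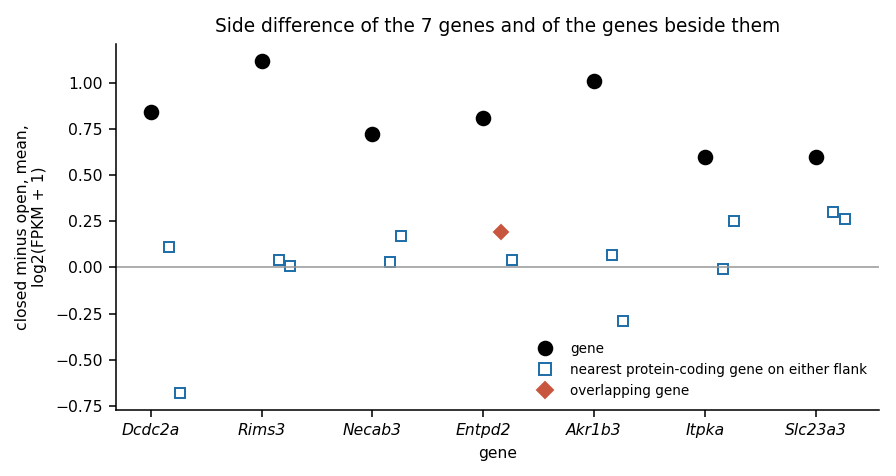
Mean closed minus open difference of log2(FPKM + 1) (vertical axis) for the 7 genes (black) and the genes beside them (squares: nearest protein-coding gene on either flank, diamond: overlapping gene). Each of the 7 lies above its neighbours, which range from -0.68 to 0.30. The 7 were chosen for lying higher on the closed side and the neighbours were not, so this order follows from the choice.

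How far reads of the 7 genes can be assigned differed between them. All 51-base windows of their GENCODE transcripts, the read length of these libraries, were looked up in the transcripts of all other genes. Rims3, Itpka and Slc23a3 shared none, Dcdc2a 0.425% and Necab3 0.833%. Akr1b3 shared 13.5% of its windows, mostly with Gm38056 and Gm6644. Entpd2 shared 25.8% with Npdc1, which was expressed at 139.4 ± 10.8 FPKM on the closed and 123.1 ± 20.5 FPKM on the open side (log2 difference 0.19), above the 13.9 and 7.42 FPKM of Entpd2. How such reads were divided by the authors is not stated, so the level of Entpd2 and to a lesser degree that of Akr1b3 are uncertain. An antisense RNA (Gm14546) overlaps Akr1b3, and 1700003F12Rik (0.547 ± 0.146 against 0.416 ± 0.180 FPKM) and Actl10 (under 0.5 FPKM) overlap Necab3 on the opposite strand. Strand marking is not stated, so reads from stretches shared with a gene on the opposite strand cannot be told apart by strand. For Necab3 the shared windows were the 0.833% given above, all with 1700003F12Rik.

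For each of the 7 genes the rows with the most similar profile were taken by the root-mean-square difference of log2(FPKM + 1) over the 6 libraries, each row centred on its own mean, among 14708 rows. Since the 7 were chosen for a shared pattern, this is a description. Necab3 and Slc23a3 were close to each other (0.084), and the second nearest to Necab3 was Itpka (0.122). Nearest to Dcdc2a were Kirrel3 (0.099), an adhesion molecule of olfactory axons that measured 26.2 ± 5.04 FPKM on the closed and 14.5 ± 1.98 FPKM on the open side, and the ephrin Efna5 (0.144). Kirrel3 was also nearest to Entpd2 (0.142), followed by Necab3 (0.162). Akr1b3 was nearest to B830017H08Rik (0.166) and Necab3 (0.174). Itpka was nearest to Fam221a (0.071) and Defb25 (0.105), and the row nearest to Slc23a3 was the receptor gene Olfr1385 (0.076), followed by Necab3. Rims3 had no row so close, its nearest being Entpd2 (0.278) and Kirrel3 (0.304), against a spread of Rims3 around its own mean of 0.679.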

How the data were processed

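The authors deposited 1 column of FPKM per library. The submitters' processing notes name Cufflinks and mm9. No aligner, annotation or further scaling is stated. A second sheet holds the deposited count of reads, the fraction of reads aligned (printed as a percent), the RNA integrity number as a score and the 28S over 18S ratio. It also gives the read length. A deposited text sheet states that same-numbered libraries come from the same mouse. The 3 libraries per side are separate mice.

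FPKM are not counts, so counting error per gene is unknown. Rows whose mean reached 1 FPKM were compared on log2(FPKM + 1) with limma 3.58.1 in R 4.3.3 (trend on expression, Benjamini-Hochberg adjustment over 14788 rows, threshold 0.05), without the mouse as a block, which is an alternative. Standard errors and p-values given without mention of the block thus ignore the pairing of libraries within a mouse. The fit was tested on simulated data, with planted differences larger than those of the 7 genes and no mouse effect. That test does not show how often smaller differences would be called. A log2 difference is closed minus open. As a check of the pairing, side-centred values of the closed and open library of each mouse correlated over rows at 0.15, 0.08 and 0.21. Libraries of different mice correlated at -0.17 to 0.01. Centring makes the 3 values of a side sum to 0, so these correlations depend on each other. In 27 rows the symbol had become a date, and none is named. The 7 genes and the gene lists were chosen with earlier results of these data known. Named genes are the 7, their close relatives, up to 3 more genes per list by lowest p, the 2 nearest profiles per gene, rows at the edge of the pattern, S100a5, Omp and Kirrel3. Rabl3 and neighbours by position were added later. Alternatives were pseudocounts, floors, scalings, the block and leaving out each library. Promoters are from RefSeq.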

Additional observations from a re-analysis of the deposited data

How the results depend on the processing

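The log2 differences of the 7 genes stayed above 0 under all 13 alternatives (12 for Slc23a3, which is under the floor of 5 FPKM). They ranged from 0.79 to 1.17 for Akr1b3, 0.59 to 0.92 for Dcdc2a, 0.59 to 1.02 for Entpd2, 0.37 to 0.71 for Itpka, 0.48 to 0.82 for Necab3, 0.83 to 1.48 for Rims3 and 0.43 to 0.85 for Slc23a3. The choice of the genes fixes this direction, so it is no sign of stability. No list member and no close relative was called under any alternative, and few of all rows were. The medians of 4 lists changed sign with single libraries left out, the active zone list (-0.06 to 0.13), the aldo-keto reductase list (-0.11 to 0.06), the doublecortin list (-0.12 to 0.08) and the Necab and Mint list (-0.12 to 0.05). Over all rows limma called 7, against 4 with no floor, 27 when scaled to mature neuron markers, and 4 to 12 with single libraries left out (4 without closed replicate 2 and 12 without closed replicate 3). The causes were not tested. With the mouse as a block, the pairing stated by the authors, 5 rows were called. The block gives no value for the count of genes without overlap. With 3 libraries per side and no counts, precision rests on the spread between libraries.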
